A study of Rattus norvegicus with 24 samples.

Results

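The genes described are Grin1, Grin2a, Grin2b, Grin2c, Grin2d and Grin3a, which encode subunits of the N-methyl-D-aspartate (NMDA) receptor. They were picked out by gene symbol from the annotated expression table, and are 6 of the 18137 rat genes with a probe set of 1 symbol. The rule keeps the probe set of highest mean where a gene has several, but each of the 6 had 1 probe set. The probe set that names Grin3b carried a second symbol as well and was not used.

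The arrays measured RNA of the cerebellum of Sprague-Dawley rats kept as a model of hepatic encephalopathy, a disturbance of brain function in liver disease. Portocaval anastomosis (PCA) is a surgical shunt that sends portal blood past the liver, and ammonia from the gut then escapes hepatic clearance. The groups were sham surgery (Sham, 5 arrays), PCA alone (PCA, 5 arrays), PCA with infusions of ammonia (PCA+NH3, 5 arrays), PCA with lipopolysaccharide (PCA+LPS, 5 arrays) and PCA with both (PCA+NH3+LPS, 4 arrays). Every group except Sham carried the shunt, and its tissue was taken 6 months after the operation. For Sham no time after surgery is given in the labels. The infused rats received up to 10 infusions at intervals of 2 weeks, of ammonia at 20 µl/min for 3 h, of LPS at 5 mg/kg, or of both. LPS comes from the outer membrane of Gram-negative bacteria and is used to provoke inflammation. The labels give no age, sex, batch or date. They also do not say whether the numbered samples of a group are separate rats and give no vehicle infusion for the groups without ammonia or LPS. Each p-value therefore measures the spread between these samples, which may be technical.

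NMDA receptors are glutamate-gated channels that pass calcium when glutamate and glycine or D-serine are bound and the membrane is depolarised. Each channel holds GluN1, the product of Grin1, together with GluN2 or GluN3 subunits, which set its kinetics, its block by magnesium and its calcium entry. In the rodent cerebellum GluN2B is typical of early development, GluN2A and GluN2C are typical of mature granule cells, and GluN2D is known from Golgi cells, deep nuclei and the brainstem. In this tissue, calcium that enters through the receptor activates neuronal nitric oxide synthase and then guanylate cyclase, a pathway studied in hyperammonemia.

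Markers of cerebellar granule cells were high on every array: the log2 expression of Gabra6, a GABA receptor subunit of these cells, lay between 11.8 and 12.4. A list of 21 marker genes of the brainstem, of which 18 were measured, was centred on each gene's mean over the arrays and averaged per array. Its mean was 1.17 on Sham array 1, 0.61 on PCA array 3, 0.58 on PCA+NH3 array 1 and 0.48 on Sham array 5. It did not pass 0.4 on any other array. The list mean spanned -0.27 to 1.17 in Sham, -0.25 to 0.61 in PCA, -0.23 to 0.58 in PCA+NH3, -0.19 to 0.03 in PCA+LPS and -0.23 to -0.09 in PCA+NH3+LPS. Dbh, which makes noradrenaline, measured 8.4 on Sham array 1, 6.9 on PCA array 3, 8.6 on PCA+NH3 array 1 and 7.0 on PCA+NH3 array 2, and at most 5.5 on the others. The transporter of noradrenaline, Slc6a2, measured 7.0, 6.0, 7.6 and 6.1 on the same 4 arrays, and at most 5.0 elsewhere. Markers of serotonin neurons in the same list, Tph2 and Slc6a4, lay between 3.6 and 4.4 on every array. Hoxb3 and Slc18a3, also in the list, did not follow Dbh on every array. Hoxb3 measured 5.8, 5.6, 5.0 and 5.2 on the 4 arrays named for Dbh, and 5.8 and 6.0 on Sham arrays 2 and 5. Slc18a3 measured 3.9, 4.1, 3.5 and 3.5 on those 4 arrays. The list mean thus pools genes with different patterns. Granule cell markers averaged -0.59 on Sham array 1 and -0.24 on PCA array 3. A list of 13 choroid plexus genes averaged 1.16, 2.29 and 2.97 on PCA+NH3 arrays 1, 2 and 5 and 2.81 on PCA+NH3+LPS array 3, and did not pass 1 on any other array. No gene of the brainstem, granule cell or choroid plexus lists passed the adjusted limma test in any contrast. At most 6 of 18, 1 of 14 and 11 of 13 had an unadjusted p under 0.05, beside 3.09% to 7.47% of all genes. The 11 of 13 came from both ammonia groups against the other shunted groups, where 5.57% of all genes were marked. Values without the arrays of high brainstem or choroid plexus list mean are given for the members in the comparison of all PCA groups with Sham. Values without Sham array 1 are given for several other comparisons with Sham.

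No difference between groups passed the test for any of the 6 NMDA receptor genes. Across all 5 groups the moderated F-test of limma, adjusted by the Benjamini-Hochberg method over all genes, called 0 of 6 members, against 0.011% of all genes, and gave each member an adjusted p of 1. At an unadjusted p under 0.05 it marked 0 of 6 members, against 4.77% of all genes. The ranges of the arrays lay apart in 0 of the 60 pairs of a member and a comparison of groups, against 0.266% of such pairs over all genes. In bulk tissue such as this, fewer cells of a type and less RNA per cell cannot be told apart.

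Grin1 encodes GluN1, the subunit that every NMDA receptor holds. Its log2 expression was 9.8, 10.1, 10.0, 10.0 and 9.9 on the Sham arrays and 10.1, 10.0, 9.8, 10.1 and 9.9 on the PCA arrays. It was 10.0, 10.0, 9.9, 10.0 and 9.9 in PCA+NH3, 10.0, 10.0, 9.9, 10.0 and 10.1 in PCA+LPS, and 10.2, 10.0, 9.8 and 9.9 in PCA+NH3+LPS. All 24 values lay within 0.4 of each other and the groups overlapped throughout. The group means ran from 9.96 ± 0.11 (SD, n = 5) in Sham to 10.0 ± 0.07 (SD, n = 5) in PCA+LPS, and 2.24% of the variance lay between groups, against a median of 14.6% over all genes. For all PCA groups against Sham the difference was 0.02 (SE 0.06, 95% interval -0.11 to 0.14, limma adjusted p = 0.973), which bounds the fold between 0.929 and 1.10.

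Grin2a encodes GluN2A, a subunit of mature granule cell receptors. It measured 8.6, 9.1, 9.0, 9.1 and 9.2 in Sham and 9.1, 8.9, 8.9, 9.0 and 9.1 in PCA. The infused groups gave 9.1, 9.1, 9.0, 9.0 and 9.0 in PCA+NH3, 9.0, 8.9, 9.3, 9.0 and 9.0 in PCA+LPS, and 9.2, 9.2, 9.1 and 9.1 in PCA+NH3+LPS. Sham array 1 was the lowest of the 24, and the other 23 lay between 8.9 and 9.3. The highest group mean was that of PCA+NH3+LPS, 9.15 ± 0.06 (SD, n = 4), against 9.0 ± 0.10 (SD, n = 5) in PCA. That difference was 0.15 (SE 0.10, 95% interval -0.05 to 0.35), and the limma test did not pass the threshold.

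Grin2c encodes GluN2C, whose receptors are weakly blocked by magnesium. It measured 9.0, 9.5, 9.5, 9.5 and 9.3 in Sham and 9.6, 9.3, 9.1, 9.7 and 9.4 in PCA. Values were 9.4, 9.5, 9.5, 9.6 and 9.5 in PCA+NH3, 9.4, 9.4, 9.5, 9.3 and 9.6 in PCA+LPS, and 9.7, 9.6, 9.4 and 9.6 in PCA+NH3+LPS. The lowest 2 values were those of Sham array 1 and PCA array 3. By group mean the order was Sham at 9.36 ± 0.22, PCA at 9.42 ± 0.24, PCA+LPS at 9.44 ± 0.11 and PCA+NH3 at 9.50 ± 0.07 (SD, n = 5 each), then PCA+NH3+LPS at 9.58 ± 0.13 (SD, n = 4). No neighbours in that order differed by more than the larger of their SDs. The ends of the order differed by 0.22 (SE 0.11, 95% interval -0.01 to 0.44) for PCA+NH3+LPS against Sham, a fold of 1.16 (0.990 to 1.36), and the limma test did not pass the threshold.

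Grin2b encodes GluN2B. Its values were 6.8, 6.3, 6.1, 6.2 and 6.5 in Sham and 6.3, 5.9, 6.5, 6.4 and 6.1 in PCA. They were 6.4, 6.1, 6.0, 5.9 and 5.9 in PCA+NH3, 6.1, 5.5, 6.2, 6.3 and 6.3 in PCA+LPS, and 6.1, 6.3, 6.4 and 5.9 in PCA+NH3+LPS. Sham array 1 was the highest of the 24 and PCA+LPS array 2 the lowest. In order of level, Sham averaged 6.38 ± 0.28, PCA 6.24 ± 0.24 (SD, n = 5 each), PCA+NH3+LPS 6.18 ± 0.22 (SD, n = 4), PCA+LPS 6.08 ± 0.33 and PCA+NH3 6.06 ± 0.21 (SD, n = 5 each). The steps between neighbours were smaller than these SDs. Grin2b varied more within groups than 88.7% of all genes, with a pooled SD of 0.262 against a median of 0.158.

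Grin2d encodes GluN2D, whose channels close slowly. It measured 6.2, 4.8, 5.1, 5.1 and 5.2 in Sham and 4.9, 5.0, 5.5, 5.0 and 4.8 in PCA. It measured 5.4, 5.3, 4.8, 5.1 and 5.3 in PCA+NH3, 5.1, 4.9, 5.1, 5.1 and 4.8 in PCA+LPS, and 5.0, 5.1, 5.0 and 5.1 in PCA+NH3+LPS. The highest 3 values were those of Sham array 1, PCA array 3 and PCA+NH3 array 1, which are also 3 of the 4 arrays with high Dbh. The 4th, PCA+NH3 array 2, measured 5.3, as did PCA+NH3 array 5, where Dbh was 4.2. Sham array 5, with a brainstem list mean of 0.48, measured 5.2. Group means were 5.28 ± 0.54 in Sham, 5.18 ± 0.24 in PCA+NH3, 5.04 ± 0.27 in PCA and 5.00 ± 0.14 in PCA+LPS (SD, n = 5 each), with 5.05 ± 0.06 (SD, n = 4) in PCA+NH3+LPS. Its pooled SD within groups, 0.304, was above that of 92.7% of all genes.

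Grin3a encodes GluN3A, which lowers the calcium entry of the receptors that hold it. It measured 6.3, 6.1, 6.2, 6.0 and 6.0 in Sham, 6.3, 5.9, 6.1, 6.0 and 6.0 in PCA, and 6.1, 6.2, 5.9, 6.2 and 5.8 in PCA+NH3. The other groups gave 6.0, 6.0, 6.0, 6.0 and 6.2 in PCA+LPS and 6.0, 6.1, 6.0 and 6.0 in PCA+NH3+LPS. Group means spanned 6.03 ± 0.05 (SD, n = 4) in PCA+NH3+LPS to 6.12 ± 0.13 (SD, n = 5) in Sham, and 7.49% of the variance lay between groups.

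**Figure D1:**
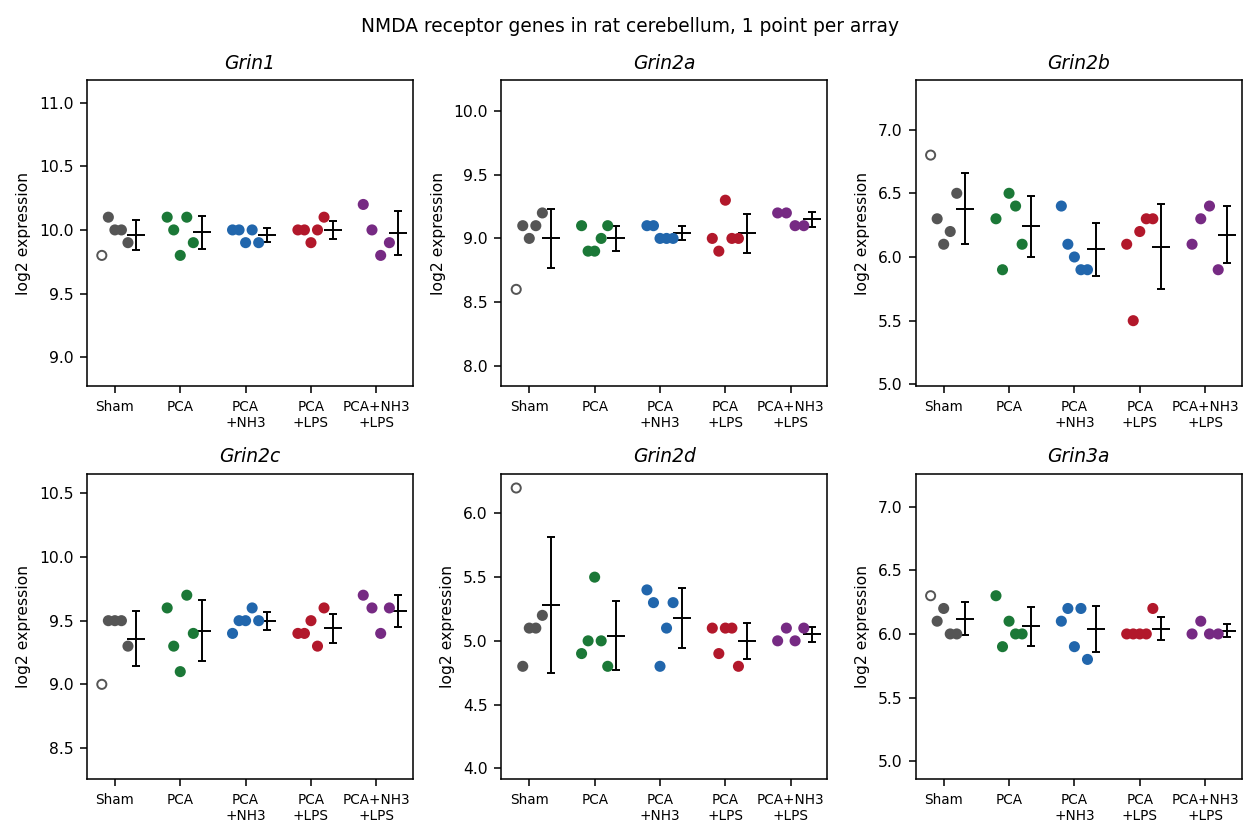
Log2 expression of the 6 genes (vertical axes, of equal span and centred on the gene's mean) in the 5 groups, 1 point per array, with the group mean and SD in black and Sham array 1 as an open point. Sham array 1 has the highest Grin2b (6.8) and Grin2d (6.2) and the lowest Grin2a (8.6) and Grin2c (9.0), and the groups overlap for every gene.

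The shunt alone was compared as PCA against Sham. The limma test called 0 of 6 members, as it called 0% of all genes, and at an unadjusted p under 0.05 it marked 0 of 6 members against 3.59% of all genes. The member with the largest difference was Grin2d, at -0.24 (SE 0.18, 95% interval -0.61 to 0.13), followed by Grin2b at -0.14 (SE 0.16, 95% interval -0.46 to 0.18). Without Sham array 1 these values were -0.01 (SE 0.13) for Grin2d and -0.04 (SE 0.15) for Grin2b. The median difference was -0.03 over the 6 members and 0 over all genes.

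The infusions were compared with PCA alone, a set of comparisons that share the PCA arrays. For ammonia, 0 of 6 members were called, against 0% of all genes, and 0 of 6 reached an unadjusted p under 0.05, against 4.98% of all genes. For LPS the limma counts were also 0 of 6, beside 0% and 4.01% of all genes. The combined infusions again gave 0 of 6 and 0 of 6, beside 0% and 4.16%. Grin2b differed by -0.18 (SE 0.16) with ammonia, by -0.16 (SE 0.16) with LPS and by -0.07 (SE 0.16) with both. Grin2c differed by 0.08 (SE 0.10), 0.02 (SE 0.10) and 0.16 (SE 0.11) in the same order. For Grin1, whose differences from PCA were -0.02, 0.02 and -0.01, the intervals reached no further than -0.18 and 0.18.

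A factorial view of the 4 shunted groups set both ammonia groups against both others, and likewise for LPS. The ammonia factor called 0 of 6 members, against 0.0165% of all genes, and marked 0 of 6 at an unadjusted p under 0.05, against 5.57%. The LPS factor called 0 of 6 members, against 0.0165% of all genes, and marked 0 of 6 at an unadjusted p, against 3.09%. Their interaction asks whether both infusions together differ from the sum of their separate effects, and limma called 0 of 6 members, against 0% of all genes, with 0 of 6 at an unadjusted p, against 3.72%. The largest member value in the ammonia factor was Grin2c at 0.11 (SE 0.08, 95% interval -0.05 to 0.26), with 7 of 9 ammonia arrays above the mean of the others. In the interaction it was Grin2b at 0.28 (SE 0.23, 95% interval -0.19 to 0.74).

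**Figure D2:**
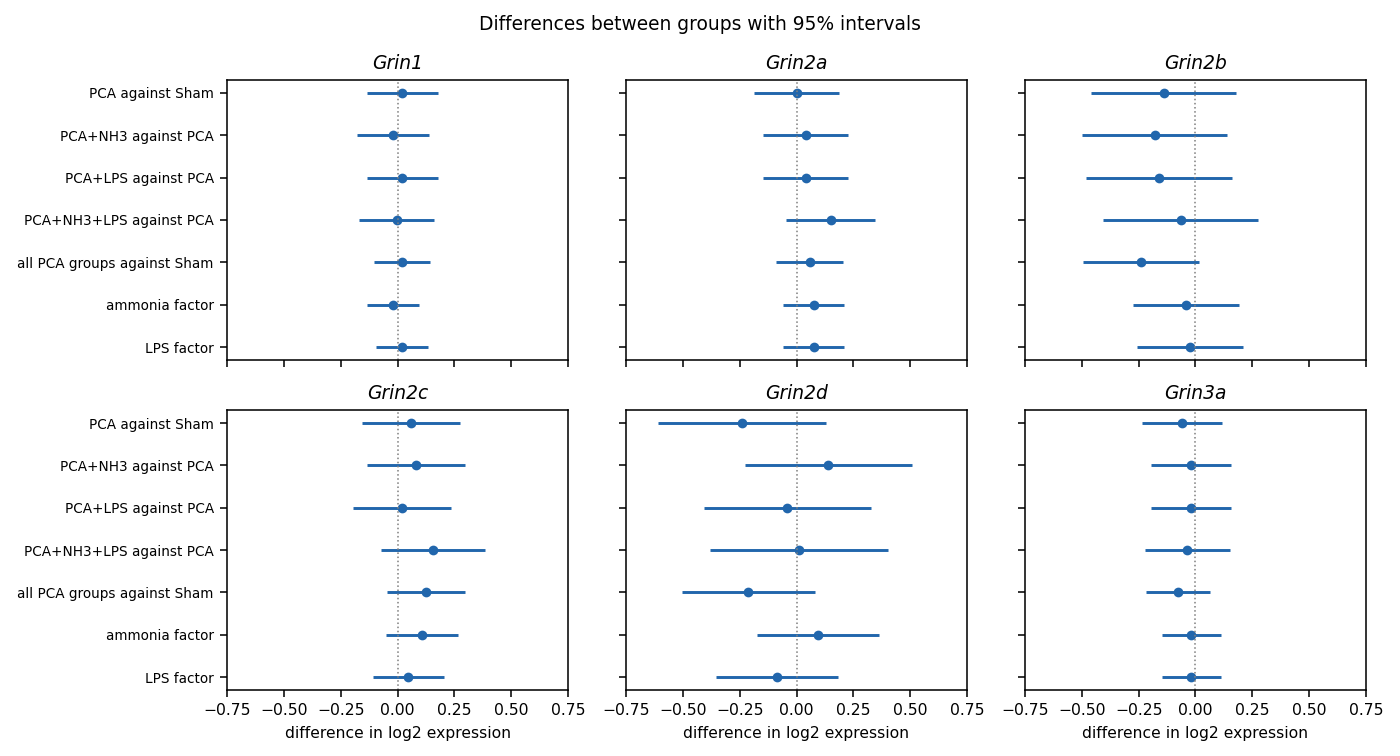
Difference in log2 expression (horizontal axes) for 7 comparisons of groups in each of the 6 genes, as points with 95% intervals from limma. Every interval drawn includes 0, and the widest are those of Grin2d and Grin2b.

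Each infused group was also set against Sham, comparisons that share the Sham arrays. With ammonia, 0 of 6 members were called, against 0% of all genes, and 0 of 6 reached an unadjusted p under 0.05, against 6.05% of all genes. With LPS, limma called 0 of 6 members, against 0.0331% of all genes, and marked 0 of 6 at an unadjusted p, against 7.47%. With both infusions it called 0 of 6, against 0%, and marked 0 of 6, against 4%. Grin2b was the member with the largest difference for PCA+NH3, -0.32 (SE 0.16, 95% interval -0.64 to 0.0004, limma adjusted p = 0.826), and for PCA+LPS, -0.30 (SE 0.16, 95% interval -0.62 to 0.02). Without Sham array 1 these were -0.22 (SE 0.15) and -0.20 (SE 0.15), and without PCA+LPS array 2 the second was -0.16 (SE 0.14). For PCA+NH3+LPS the members with the largest differences were Grin2d at -0.23, Grin2c at 0.22 and Grin2b at -0.21, or 0, 0.13 and -0.10 without Sham array 1.

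The mean of all 4 PCA groups against Sham uses the most arrays, 19 against 5. It called 0 of 6 members, against 0.00551% of all genes, and marked 0 of 6 at an unadjusted p under 0.05, against 5.94% of all genes. The Grin2b difference was -0.24 (SE 0.12, 95% interval -0.50 to 0.01, limma adjusted p = 0.840), and 15 of 19 PCA arrays were below the Sham mean. Grin2d differed by -0.21 (SE 0.14, limma adjusted p = 0.867), likewise with 15 of 19 arrays below. Grin2c differed by 0.12 (SE 0.08, limma adjusted p = 0.868), with 16 of 19 arrays above. These counts use a Sham mean that includes Sham array 1, and they were not redone without it. Inside the range of the Sham arrays lay 13 of the 19 PCA arrays for Grin2b, 19 for Grin2d and 12 for Grin2c. Grin3a differed by -0.08 (SE 0.07) and Grin2a by 0.06 (SE 0.07).

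These values moved with Sham array 1, the array with the highest brainstem list mean. Without it, the Grin2b difference was -0.14 (SE 0.13), that of Grin2c was 0.03 (SE 0.08) and that of Grin2d was 0.02 (SE 0.10). The sign thus turned for Grin2d, and it also turned for Grin2a, at -0.04 (SE 0.06), and for Grin1, at -0.02 (SE 0.06). Without the 4 arrays whose brainstem list mean passed 0.4, Grin2b differed by -0.10 (SE 0.13), Grin2d by 0.03 (SE 0.09) and Grin2c by 0.01 (SE 0.08). With the brainstem list mean as a covariate over all 24 arrays, the values were -0.11 (SE 0.10) for Grin2b, -0.02 (SE 0.08) for Grin2d and 0.03 (SE 0.06) for Grin2c. Without the 4 arrays of high choroid plexus list mean, Grin2b differed by -0.29 (SE 0.13) and Grin2d by -0.27 (SE 0.15), and neither passed the adjusted threshold.

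**Figure D3:**
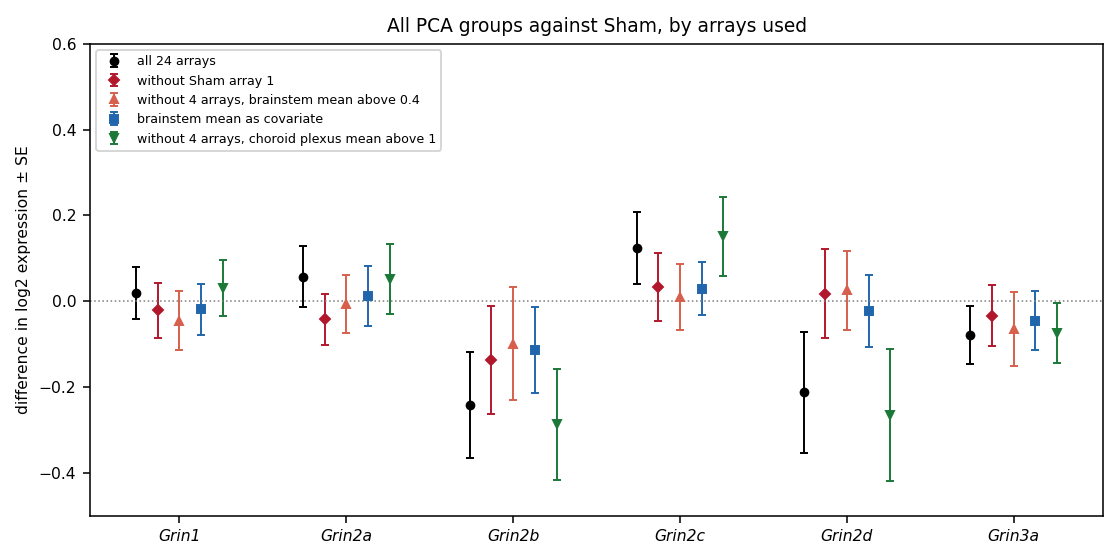
Difference in log2 expression between the mean of all PCA groups and Sham (vertical axis, ± SE) for the 6 genes, with all 24 arrays and with 4 other choices of arrays or model. For Grin2b the value is -0.24 with all arrays, -0.29 without the 4 arrays of high choroid plexus list mean and -0.10 without the 4 of high brainstem list mean, and for Grin2d it is -0.21, -0.27 and 0.03 in the same order.

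The balance of subunits within an array was taken as the difference of log2 values between a pair of members, which is free of a shift common to both. For Grin2b minus Grin2a the values averaged -2.62 ± 0.47 in Sham, -2.76 ± 0.26 in PCA, -2.98 ± 0.16 in PCA+NH3 and -2.96 ± 0.30 in PCA+LPS (SD, n = 5 each), and -2.98 ± 0.22 (SD, n = 4) in PCA+NH3+LPS. These are different probe sets, so only their change between groups can be read, and the group ranges overlapped. Sham array 1 stood at -1.8 and the other 4 Sham arrays between -2.9 and -2.7. PCA differed from Sham by -0.14, or by 0.07 without Sham array 1. The difference between PCA+NH3 and PCA was -0.22, with p = 0.206 in an exact two-sided permutation test. It was the smallest p of 16 such tests, made for 4 pairs of members in 4 comparisons, and the adjusted p was 1 in all 16. The smallest p these group sizes allow is 0.00794, which alone among 16 tests would adjust to 0.127. For Grin2c minus Grin2a, the pair of mature granule cell subunits, the mean was 0.36 ± 0.15 in Sham and 0.42 ± 0.19 in PCA (SD, n = 5 each), and no exact permutation test of it passed.

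Within groups, the members varied with the marker lists. The deviation of each array from its group mean was correlated between each of the 6 genes and each of 6 list means, 36 relations over 24 arrays, with 100000 permutations within groups. By Pearson's r, 12 of the 36 had an adjusted p under 0.05, and 11 did by Spearman's rho. Grin2d was higher on arrays with a higher brainstem list mean (r = 0.853, adjusted permutation p = 0.00547, and rho = 0.737, adjusted permutation p = 0.00252). It was lower where the granule cell list was higher (r = -0.898, adjusted permutation p = 0.00822, and rho = -0.814, adjusted permutation p = 0.00312) and where the Purkinje cell list was higher (r = -0.846, adjusted permutation p = 0.0105, and rho = -0.635, adjusted permutation p = 0.0254).

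Grin2b was also higher with a higher brainstem list mean (r = 0.663, adjusted permutation p = 0.00414, and rho = 0.676, adjusted permutation p = 0.00459). Grin2c went the other way (r = -0.764, adjusted permutation p = 0.00414, and rho = -0.668, adjusted permutation p = 0.00312), and it was higher with the granule cell list (r = 0.736, adjusted permutation p = 0.0124, and rho = 0.549, adjusted permutation p = 0.0278). The oligodendrocyte list, whose mean was also highest on Sham array 1 (1.15), gave r = 0.764 for Grin2d (adjusted permutation p = 0.0181), r = 0.653 for Grin2b (adjusted permutation p = 0.00547) and r = -0.736 for Grin2c (adjusted permutation p = 0.00547), and all 3 also passed by rho (0.581, 0.674 and -0.612). Grin1 passed by r with the Purkinje cell list (r = 0.560, adjusted permutation p = 0.0326), though not by rho (rho = 0.409, adjusted permutation p = 0.172). Grin2a and Grin3a passed with no list, and no member passed with the choroid plexus list or the Golgi cell and interneuron list.

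How many of these relations passed the threshold depended on a few arrays. Without the 2 arrays farthest from the median of the list mean, Sham array 1 and PCA array 3 for the brainstem list, r was 0.547 for Grin2d, 0.528 for Grin2b and -0.446 for Grin2c. None of the 36 relations then had an adjusted permutation p under 0.05. Without Sham array 1 alone, 5 of the 36 did, among them the brainstem list with Grin2d (r = 0.714, adjusted permutation p = 0.0342), with Grin2b (r = 0.573, adjusted permutation p = 0.0171) and with Grin2c (r = -0.639, adjusted permutation p = 0.0171). For Grin2a and the granule cell list, r was 0.655 with all arrays (rho = 0.448, adjusted permutation p of r = 0.141) and 0.0963 without Sham array 1. The part of brainstem RNA in these values was not tested.

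**Figure D4:**
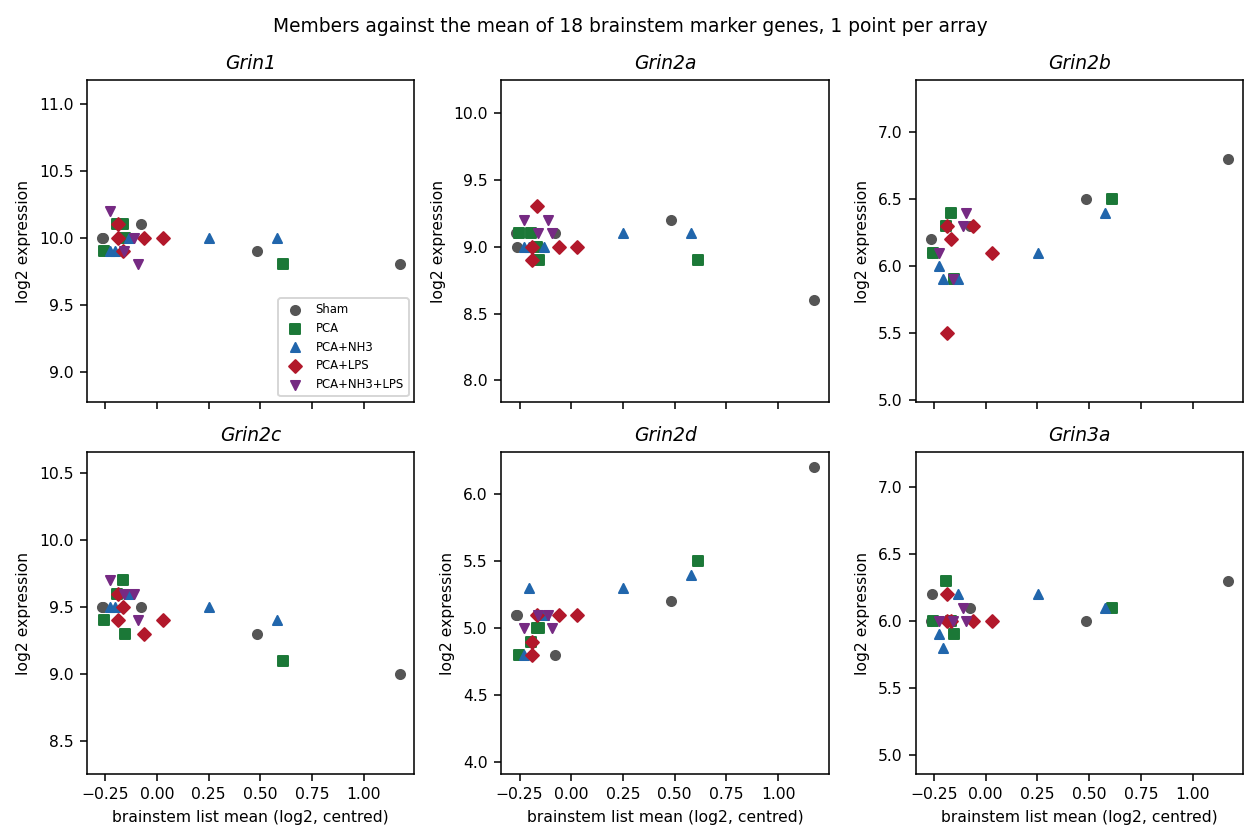
Log2 expression of the 6 genes (vertical axes) against the mean of 18 brainstem marker genes (horizontal axes, log2 relative to each gene's mean over the arrays), 1 point per array, with the groups as symbols. Sham array 1, at 1.17, has the highest Grin2d and Grin2b and the lowest Grin2c, and 20 of the 24 arrays lie at 0.4 or below.

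**Figure D5:**
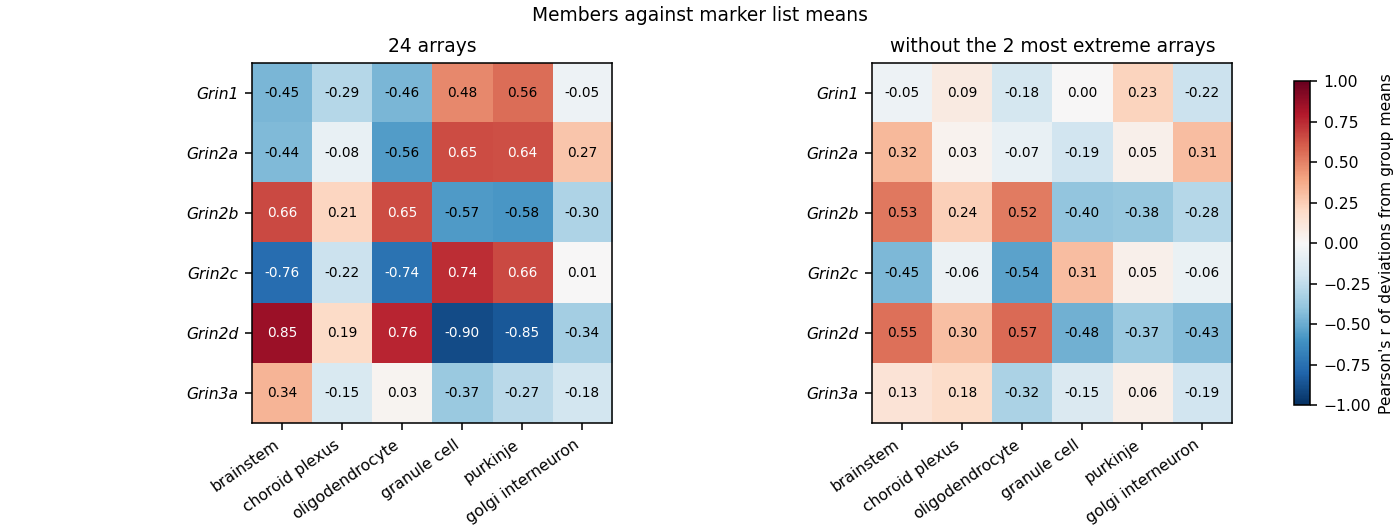
Pearson's r between the deviations of the 6 genes (rows) and of 6 marker list means (columns) from their group means, over 24 arrays (left) and without the 2 arrays farthest from the median of each list mean (right). Grin2d and the granule cell list give -0.898 on the left and -0.482 on the right.

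Members also varied with each other in ways that differed by pair, given here as descriptions over the deviations of 24 arrays. Grin1 and Grin2c varied together (r = 0.755, and 0.713 without Sham array 1). Grin2c and Grin2d went opposite ways (r = -0.701, and -0.523 without it). For Grin2a and Grin2d the r of -0.562 became 0.0115 without Sham array 1, and for Grin2b and Grin2d it went from 0.515 to 0.342. The arrays share tissue composition and scaling, so these values do not set the genes apart from others.

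The promoters of Grin1, Grin2c and Grin2d are shown because these genes formed the pairs with the largest r in each direction. They are RefSeq sequences of the GRCr8 build, 250 bases before to 50 after the start of the gene, all on the minus strand and written 5′ to 3′ along the gene. RefSeq's table held 4 of the 6 members, these and Grin3a. Capitals mark matches to the GC box GGGCGG bound by Sp1, the Egr motif GCGNGGGCG or the NRF1 core GCGCANGCG, searched on both strands.
Grin1, chr3:28528705-28529004: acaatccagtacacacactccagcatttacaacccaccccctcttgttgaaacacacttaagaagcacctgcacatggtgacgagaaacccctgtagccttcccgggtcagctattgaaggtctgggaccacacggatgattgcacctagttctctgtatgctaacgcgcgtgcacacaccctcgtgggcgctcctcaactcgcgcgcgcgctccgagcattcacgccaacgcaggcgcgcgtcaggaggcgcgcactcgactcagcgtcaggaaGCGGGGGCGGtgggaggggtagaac
Grin2c, chr10:101005089-101005388: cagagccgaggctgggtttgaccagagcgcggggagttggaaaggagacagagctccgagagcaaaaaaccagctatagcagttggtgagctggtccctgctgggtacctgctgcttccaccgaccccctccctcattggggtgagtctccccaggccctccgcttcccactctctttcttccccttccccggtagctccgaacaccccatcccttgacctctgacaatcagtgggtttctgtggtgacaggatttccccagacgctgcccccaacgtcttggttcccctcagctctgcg
Grin2d, chr1:105481187-105481486: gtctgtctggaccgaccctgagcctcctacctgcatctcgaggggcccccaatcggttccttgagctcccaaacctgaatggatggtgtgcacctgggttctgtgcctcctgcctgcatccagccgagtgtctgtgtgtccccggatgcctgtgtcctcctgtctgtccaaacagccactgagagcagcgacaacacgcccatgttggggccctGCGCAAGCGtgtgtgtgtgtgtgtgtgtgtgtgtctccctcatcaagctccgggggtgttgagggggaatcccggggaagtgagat
The Grin1 window held 1 GC box and 1 Egr motif, which overlap and give 1 run of capitals just after the start. The Grin2d window held 1 NRF1 core, and the Grin2c window held none of the 3. Of the 33469 promoters in the table, 33.1% held the GC box, 4.98% the Egr motif and 5.80% the NRF1 core. The 3 windows had G+C contents of 59.7%, 60.3% and 60.7%.

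The genes whose deviations were most like those of each member were named by 1 rule for all members, 3 at the highest and 3 at the lowest r over 24 arrays. For Grin1 these were Ppfia4 (r = 0.860), Neurl1 (r = 0.857) and Tspan9 (r = 0.821), and at the low end Rsu1 (r = -0.821), Ccser2 (r = -0.808) and Lims1 (r = -0.801). Neurl1 was also among the closest to Grin2c (r = 0.867), beside Sstr3, a somatostatin receptor (r = 0.879), and Ajm1 (r = 0.871), while Umodl1 (r = -0.923), Mmgt2 (r = -0.858) and Pxdc1 (r = -0.853) were opposite to it. Closest to Grin2b was Lrrc7, the postsynaptic scaffold densin-180 (r = 0.884, and 0.859 without Sham array 1), then Capn2, a calcium-dependent protease (r = 0.831), and Cobll1 (r = 0.827), with Las1l (r = -0.824), Cyth2 (r = -0.812) and Galnt11 (r = -0.803) opposite.

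Closest to Grin2d were Tenm4, a teneurin of developing neurons (r = 0.942, and 0.901 without Sham array 1), Zdhhc22 (r = 0.916, and 0.776 without it) and Uchl1, a neuronal ubiquitin hydrolase (r = 0.907, and 0.768 without it). Opposite to Grin2d were Tmem178a (r = -0.908, and -0.750 without Sham array 1), Mtmr12 (r = -0.906, and -0.767 without it) and Trim3 (r = -0.895, and -0.738 without it). For Grin2a the closest were Sorl1, a sorting receptor (r = 0.827, and 0.640 without Sham array 1), Trpm8 (r = 0.821, and 0.721 without it) and Lsm11 (r = 0.805, and 0.665 without it). Opposite to Grin2a were Tasl (r = -0.826, and -0.742 without that array), Capg (r = -0.804, and -0.568 without it) and H1f1 (r = -0.802, and -0.553 without it). Grin3a had weaker neighbours, Stab2 (r = 0.780), Hdac5 (r = 0.761) and Kcnq5 (r = 0.729), and opposite to it Ireb2 (r = -0.745), MGC105560 (r = -0.718) and Serpinb6a (r = -0.701). Each r is the extreme of 18137 genes and is a description.

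Scaffold and signalling genes linked to the receptor, directly or through other proteins, were measured in 21 of 22 cases. Limma called 0 of 21 in every contrast. Between 0 and 4 of the 21 had an unadjusted p under 0.05, beside 3.09% to 7.47% of all genes. Their median difference for all PCA groups against Sham was -0.03, beside -0.003 over all genes. The member of the list with the smallest F-test p was Nos1ap, an adaptor of neuronal nitric oxide synthase (F-test p of limma = 0.000163, adjusted p = 0.247). Nos1ap measured 7.5, 7.7, 7.6, 7.7 and 7.7 in Sham, 7.6, 7.5, 7.6, 7.5 and 7.5 in PCA, and 7.5, 7.5, 7.4, 7.5 and 7.5 in PCA+NH3. In PCA+LPS it measured 7.4, 7.4, 7.5, 7.4 and 7.4, and in PCA+NH3+LPS 7.7 on all 4 arrays. PCA+NH3+LPS and PCA differed by 0.16 (SE 0.06, limma adjusted p = 0.997). For PCA+LPS against Sham, Nos1ap differed by -0.22 (SE 0.05, limma adjusted p = 0.253), and without Sham array 1 by -0.26 (SE 0.05, limma adjusted p = 0.0902). Its interaction of ammonia and LPS was 0.34 (SE 0.08, limma adjusted p = 0.997). Actn2, an actin crosslinker that binds GluN1, averaged 4.76 ± 0.35 (SD, n = 5) in Sham and differed by -0.31 (SE 0.10) in all PCA groups, or by -0.18 (SE 0.08) without Sham array 1.

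Genes that make, remove or carry the co-agonists glycine and D-serine were measured in 8 of 10 cases. Limma called 0 of 8 in every contrast, and at most 1 had an unadjusted p under 0.05, beside 3.09% to 7.47% of all genes. That gene list includes Slc6a5, the neuronal glycine transporter, which is also in the brainstem and Golgi cell lists. Slc6a5 measured 9.1 on Sham array 1, 8.3 on Sham array 5 and 8.0 on PCA array 3, and at most 7.7 on the other arrays. All PCA groups differed from Sham by -0.61 (SE 0.17, limma adjusted p = 0.594), and by -0.33 (SE 0.13, limma adjusted p = 0.621) without Sham array 1. The other gene named by the rule, Slc1a5, a transporter of neutral amino acids, averaged between 4.20 and 4.42 in the 5 groups.

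Of 29 genes downstream of the receptor 28 were measured, and limma called 0 of 28 in every contrast. At most 2 had an unadjusted p under 0.05, beside 3.09% to 7.47% of all genes. Prkg1, the kinase activated by cyclic GMP, averaged 6.80 ± 0.42 in Sham, 6.76 ± 0.05 in PCA, 6.72 ± 0.20 in PCA+NH3 and 7.10 ± 0.32 in PCA+LPS (SD, n = 5 each), and 7.08 ± 0.10 (SD, n = 4) in PCA+NH3+LPS. PCA+LPS and PCA differed by 0.34 (SE 0.16, limma adjusted p = 0.988) for Prkg1. Camk2g, a calcium/calmodulin-dependent kinase, averaged 10.28 ± 0.30 in Sham and 9.96 ± 0.15 in PCA+LPS (SD, n = 5 each), a difference of -0.32 (SE 0.11, limma adjusted p = 0.505), or -0.19 (SE 0.09) without Sham array 1.

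The other glutamate receptor families gave no call either, with 0 of 8 AMPA, 0 of 6 kainate, 0 of 5 delta and 0 of 7 metabotropic receptor genes past the limma threshold in every contrast. For all PCA groups against Sham 3 of the 7 metabotropic genes, 1 of the 5 delta list genes and none of the AMPA or kainate genes had an unadjusted p under 0.05, beside 5.94% of all genes. Grm5, the metabotropic receptor mGluR5, averaged 6.44 ± 0.63 in Sham and differed by -0.63 (SE 0.21, limma adjusted p = 0.712) in all PCA groups, or by -0.41 (SE 0.20) without Sham array 1. Grm8 measured 6.4, 6.5, 6.6, 6.6 and 6.9 in PCA+LPS and 6.1, 6.2, 5.9 and 5.9 in PCA+NH3+LPS. It measured 6.6, 6.1, 6.0, 6.7 and 6.0 in Sham, 6.5, 5.9, 6.2, 6.4 and 6.3 in PCA, and 6.4, 6.6, 6.2, 6.6 and 6.4 in PCA+NH3. The Sham and PCA values thus reached into the ranges of both other groups. The interaction of ammonia and LPS for Grm8 was -0.76 (SE 0.20, limma adjusted p = 0.997), so it did not pass the threshold. Grid1, a delta receptor, differed by -0.24 (SE 0.08) in all PCA groups and by -0.18 (SE 0.08) without Sham array 1. Cbln2, which binds delta receptors, differed by -0.44 (SE 0.22), and by -0.20 (SE 0.21) without that array. Gria2 and Gria3, AMPA receptor subunits, differed by 0.12 (SE 0.08) and 0.04 (SE 0.06), and the kainate receptor genes Grik2 and Grik5 by 0.15 (SE 0.10) and -0.003 (SE 0.06). Without Sham array 1 these differences were 0.02 for Gria2, 0.01 for Gria3, 0.02 for Grik2 and -0.03 for Grik5.

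All 7 glutamate transporter genes were measured, and limma called 0 of 7 in every contrast. At an unadjusted p under 0.05 it marked 0 of 7, beside 3.09% to 7.47% of all genes. Slc1a3, the glutamate transporter of Bergmann glia, averaged 11.28 ± 0.18 in Sham and 11.22 ± 0.08 in PCA (SD, n = 5 each), and all PCA groups differed from Sham by 0.01 (SE 0.07). Slc17a8, a vesicular glutamate transporter, averaged between 3.68 and 3.84 in the 5 groups, a low level on this scale. Not every gene of the list was as even. Slc17a6, also in the brainstem list, measured 8.6 on Sham array 1, 7.2 on PCA array 3 and 6.8 on PCA+NH3 array 1. On the other arrays it lay between 3.5 and 6.3. Grina, a membrane protein named for an NMDA receptor yet not one of its subunits, averaged 11.08 ± 0.11 (SD, n = 5) in Sham and differed by -0.10 (SE 0.06, limma adjusted p = 0.857) in all PCA groups.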

How the data were processed

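The deposited values are log2 expression per probe set, made by the authors with RMA per the submitters' processing notes, which corrects background, normalizes arrays by quantiles and summarises probes. RMA's version, the annotation build and any filter were not given in the sources used here. Values come in steps of 0.1 between 1.5 and 13.5, so rounding alone contributes an SD of 0.0289. Between the annotated values and the series matrix there were 0 differences. The extraction of RNA is not described in the labels.

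Of 29016 probe sets, 19338 carried 1 symbol, 1521 several and 8157 none. Symbols were brought up to date with RefSeq: 14126 were current, 3388 were updated from a synonym and 1824 were kept. For 836 genes with several probe sets the one with the highest mean stood for the gene, giving 18137 genes.

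A single fit of limma 3.58.1 in R 4.3.3 took all 24 arrays, with a mean per group and no covariates, with 19 residual and 4.39 prior degrees of freedom. Tests were two-sided and adjusted by Benjamini-Hochberg over all genes, with a threshold of 0.05. The factors set the mean of the groups with an infusion against the mean of the shunted groups without it. Arrays have no read depth, and their number limits the precision: the median SE between groups of 5 was 0.0990. Subunit balances were tested by exact permutation, and relations to marker lists by permutation within groups. The scripts were tested on simulated data.

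The rule for the members uses gene symbols, and the highest mean only where a gene has several probe sets, which no member had. The family and the gene lists, however, were chosen with earlier results of these data known. Named genes are the 6 members, the 3 genes of highest and 3 of lowest r with each (leaving out the prefixes Rn, Snor, Vom, Olr, Mir, AABR, RGD and LOC), and in each related list the genes past the threshold or otherwise the 2 with the smallest F-test p. In marker lists the rule takes the first 4 genes as written, of which Gabra6, Dbh, Slc6a2, Tph2 and Slc6a4 are described. Hoxb3 and Slc18a3, described after their values were seen, had the smallest F-test p of the brainstem list. Slc17a6 was likewise described after its values were seen. Markers of Bergmann glia, oligodendrocytes and their precursors, microglia, endothelium, forebrain and meninges were measured too, and limma called 0 genes of these lists in every contrast, with at most 2 of 10, 1 of 13, 0 of 5, 5 of 12, 1 of 5, 2 of 9 and 0 of 8 measured genes, in that order, at an unadjusted p under 0.05, beside 3.09% to 7.47% of all genes. Without Sham array 1, list genes were looked up only where named, for all PCA groups and for PCA+LPS against Sham, so calls over whole lists were not counted. Among those looked up, the microglial gene C1qa, named after its values were seen, passed for PCA+LPS against Sham. It differed by 1.06 (limma adjusted p = 0.0298), against 0.84 (adjusted p = 0.321) with all arrays. Alternatives were other scalings and filters, other limma settings, the groups compared alone, arrays left out in turn and the replicate number as a block.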

Additional observations from a re-analysis of the deposited data

Results flagged for a closer look

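In groups of 4 or 5 arrays the highest or lowest value was set against the gap that chance passes in about 1 of 20 groups. Of 80 groups tested, 15 passed. Sham array 1 stood apart in Grin2d (6.2), in the granule cell list mean (-0.59), in the Purkinje cell list mean (-0.44), in Grin2b minus Grin2a (-1.8) and in Grin2d minus Grin2a (-2.4). PCA array 3 stood apart in Grin2d (5.5), in the brainstem list mean (0.61) and in the granule cell list mean (-0.24).

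In PCA+LPS, array 3 stood apart in Grin2a (9.3), array 2 in Grin2b (5.5) and array 5 in Grin3a (6.2). Grin3a on PCA+NH3+LPS array 2 (6.1) stood apart from 3 arrays tied at 6.0, a gap of 1 rounding step of 0.1. Grin2b minus Grin2a on PCA+NH3 array 1 (-2.7) and Grin2c minus Grin2a on Sham array 5 (0.1) also passed, as did the choroid plexus list mean on PCA+NH3+LPS array 3 (2.81).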

How the results depend on the processing

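The 66 differences of members were recomputed under 14 alternatives that keep the arrays or drop a chosen set and with each of 24 arrays left out, 2502 values in all. None passed the adjusted threshold, and the smallest adjusted p was 0.390 (Grin2b, PCA+LPS against Sham, with each array centred on its median). At an unadjusted p under 0.05 there were 39 of the 2502 values. In 137 the sign differed from the main value, among 37 of the 66 differences, and the cause was not tested. The 454 recomputed counts of members past the threshold were all 0. The number of relations to marker lists past the threshold, 12, became 0 without the 2 farthest arrays of each list and 5 without Sham array 1, settings chosen after seeing the data, and 11 after cyclic loess.

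Replicate numbers recur across groups. Deviations of arrays with the same number correlated with a median r of 0.0976 (46 pairs, -0.473 to 0.567, 23 over 0.1), and those with other numbers with a median of -0.0113 (184 pairs, 44 over 0.1). Pairing was to be assumed only with every same-number pair over 0.1, so the arrays were not paired. That bar is strict, and missing it does not show that arrays of the same number share nothing. With the replicate number as a block 0 members passed in any comparison. Centring on the median moved the median interaction of all genes to 0.125, and no other scaling moved it by over 0.1. For all genes, PCA+LPS against Sham called 6, and between 0 and 16 under the alternatives, with 0 to 10 when an array was left out. Fitting only the groups compared was not possible for all PCA groups against Sham and for the F-test, which use every group.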
